A study of Mus musculus with 20 samples.

Results

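The genes of glycolysis, glucose transport and glycogen metabolism were followed in quadriceps muscle of old mice after a single injection of stem cell secretome. The set held 39 genes, found by matching the Ensembl identifiers of the count table to gene symbols. It covered 40 of the 55416 rows of the table, because Aldoa matched a second, low row of at most 35 counts, which was left out. All 39 genes had enough counts to be tested, among 14471 genes tested in all. The mice were male wild-type C57BL/6J animals aged 26 to 28 months that had been fasted for 4 h. The control group received 50 µL of 0.9% saline into the quadriceps (n = 10), and the secretome-treated group received the same volume of secretome from human pluripotent stem cells in saline (n = 10). The muscle was taken 3 h later, and total RNA depleted of ribosomal RNA was sequenced as 1 library per mouse. Both groups shared the strain, sex, age, fast and injection, and the secretome came from human cells while the muscle was from mice. The muscle was extracted whole, so a lower level of a transcript could mean fewer cells of a type or less RNA per cell, and the 2 cannot be told apart.

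Glycolysis splits glucose into pyruvate and yields ATP without oxygen, and fast muscle fibres depend on it for short bursts of work. Glucose enters the fibre through transporters, is trapped by hexokinase, and is either stored as glycogen or passed down the pathway to pyruvate, which lactate dehydrogenase turns into lactate for export. Most steps have a muscle isoform and 1 or more isoforms found in other tissues, and the genes are described below by step.

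Library depth ran from 13286983 to 22987237 counts. The 39 genes together took 3.68% to 5.02% of the counts of a library, with 4.28% ± 0.34 in control mice and 4.13% ± 0.44 in secretome-treated mice (SD, n = 10 each). The libraries were numbered in order of group, with numbers 1 to 10 from control and 11 to 20 from secretome-treated mice. The share of counts from titin stood apart along those numbers, at 7.02% to 11.03% in libraries 1 to 5, 16.4% to 21.1% in libraries 6 to 15 and 14.2% to 14.7% in libraries 16 to 20. What the numbers stand for was not given in the sources used here. Libraries 6 to 15, with 5 muscles of each group and the same range of titin, therefore give a second comparison of the treatments. The first and last 5 libraries cannot be told apart from their group. Within libraries 6 to 15, numbers 6 to 10 were all control and 11 to 15 all secretome-treated. Number and treatment thus cannot be told apart there either. The muscle fibre markers were present in every library, with 59827 to 107383 CPM (counts scaled to library size) summed over 7 genes in control and 82580 to 122308 CPM in secretome-treated muscles. Macrophage markers summed over 6 genes to 75.5 to 225 CPM in control muscles and 43.4 to 185 CPM in secretome-treated muscles. Fibroblast markers summed over 4 genes to 630.3 to 912 CPM in libraries 1 to 5 and to 166 to 558 CPM in the others. Markers of neutrophils, red blood cells, endothelium, Schwann cells, adipocytes and slow fibres were detected too. No marker of any list passed a 5% false discovery rate in edgeR, while 1 of the macrophage markers did with DESeq2 over all 20 muscles (adjusted p = 0.0466). At an unadjusted p under 0.05 only 1 of 4 adipocyte and 2 of 5 slow fibre markers were lower among the 6 lists from neutrophils to slow fibres, both within libraries 6 to 15. The labels word the extraction as one of myotubes while the methods give quadriceps tissue, and blood and endothelial markers were present in every library, at 100.1 CPM or more and 96.4 CPM or more.

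Per transcript length the genes of the set spanned a wide range. Aldoa, the aldolase that splits fructose bisphosphate, stood first at 15272 TPM (counts scaled to transcript length and library size) on average over the 20 muscles, with a range of 10512 to 20438. The muscle glycogen phosphorylase Pygm, which releases glucose units from glycogen, followed at 7765 TPM (5626 to 10689). Eno3, the muscle enolase, was at 6512 TPM (4869 to 8959), Gapdh at 4531 (3749 to 5605) and Pgam2, the muscle phosphoglycerate mutase, at 4105 (2905 to 7372). With these lengths, the order of Aldoa, Pygm, Eno3 and Gapdh was the same in all 20 muscles, although the ranges of neighbours overlapped. The exon length used was 4133 bases for Gapdh and 1739 for Eno3 in every muscle, so their order rests on it. Before division by length Gapdh had the higher mean, at 4948 against 2800 CPM in control and 4783 against 3064 CPM in secretome-treated mice. Pgam2 lay above Gapdh in 7 muscles and above Eno3 in 2. Pfkm, the muscle phosphofructokinase and the main control point of the pathway, was at 3243 TPM. The pyruvate kinase gene Pkm at 1873 TPM, the triose phosphate isomerase Tpi1 at 1787 TPM and the lactate dehydrogenase subunit Ldha at 1473 TPM came next. The transporter Slc2a4, the insulin-responsive carrier of muscle and fat, reached 390 TPM, and the hexokinase Hk2 283 TPM. At the other end stood Hk1 at 4.05 TPM, Ppp1r3d, a targeting subunit of the glycogen phosphatase, at 3.23 TPM, and Pfkp, the platelet phosphofructokinase, at 3.06 TPM. Reads of Aldoa, Gapdh, Pgk1, Ldha, Tpi1, Eno1, Pgam1 and Pkm can be shared with processed copies elsewhere in the genome, so their levels are less certain, and the splice forms of Pkm were not separable in counts per gene.

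The muscle isoform was the higher of the pair per length in all 20 muscles for 11 of the 13 pairs in which both genes could be tested. The median ratio over muscles was 2174 for Pygm over the brain phosphorylase Pygb, 1065 for Pfkm over Pfkp, 720 for Pfkm over the liver phosphofructokinase Pfkl, and 465 for Pgam2 over Pgam1. It was 147 for Eno3 over Eno1, 73.0 for Hk2 over Hk1 and 37.8 for Slc2a4 over Slc2a1, the carrier of most other cells. The phosphorylase kinase subunits gave 68.4 for Phka1 over Phka2 and 35.2 for Phkg1 over Phkg2. The lactate carriers Slc16a3 and Slc16a1 stood closer, at a ratio of 5.34. These ratios depend on the length used, and with the longest transcript in place of all exons they were 61.6 for Eno3 over Eno1, 39.6 for Hk2 over Hk1 and 467 for Pfkm over Pfkl. A pair of ratios ran the other way in all 20 muscles. Pfkfb1 over Pfkfb3, 2 forms of the bifunctional enzyme that makes and removes the activator of phosphofructokinase, was at 0.198. Ppp1r3a over Ppp1r3c, which bring the glycogen phosphatase to glycogen, was at 0.529. Aldoc did not pass the filter on low counts, so its pair with Aldoa was not tested.

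**Figure D1:**
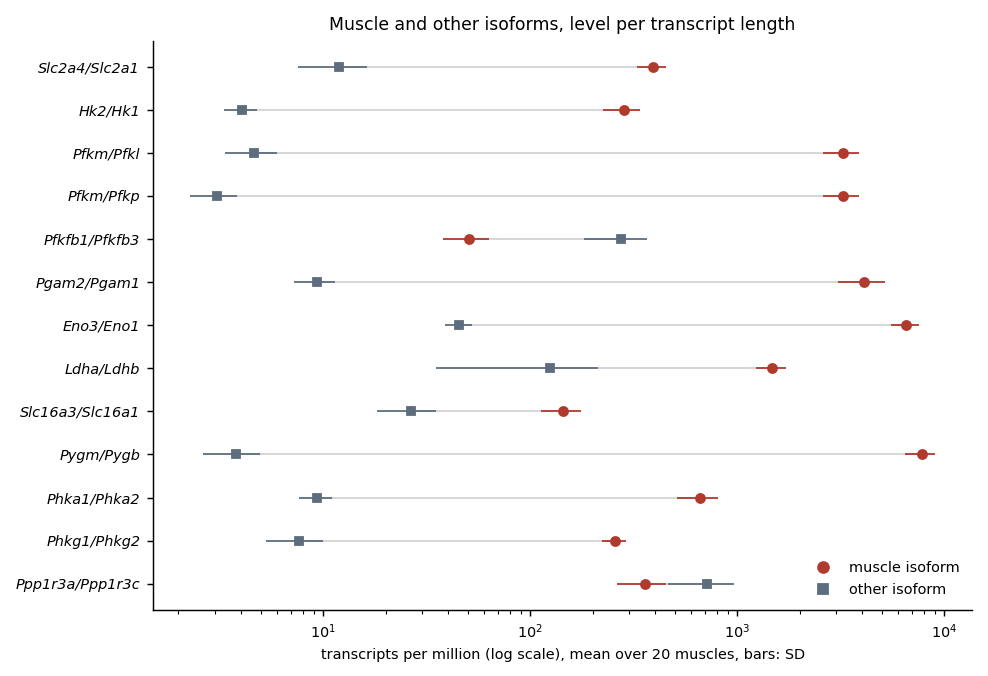
Level per transcript length of the muscle isoform (circles) and the other isoform (squares) of 13 pairs, in TPM on a log axis, as the mean over 20 muscles with the SD. The muscle isoform lies to the right in 11 pairs, and Pfkfb1 and Ppp1r3a lie to the left of Pfkfb3 and Ppp1r3c.

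The promoters of the mutase pair are shown because these genes differ by a median of 465 in level while they encode the same reaction. Each sequence is the 250 bases before the annotated start, from RefSeq on build GRCm38.p6, 5′ to 3′ on the strand of the gene, and capitals mark matches to the motifs searched.
Pgam2 (chr11:5803797-5804046, minus strand): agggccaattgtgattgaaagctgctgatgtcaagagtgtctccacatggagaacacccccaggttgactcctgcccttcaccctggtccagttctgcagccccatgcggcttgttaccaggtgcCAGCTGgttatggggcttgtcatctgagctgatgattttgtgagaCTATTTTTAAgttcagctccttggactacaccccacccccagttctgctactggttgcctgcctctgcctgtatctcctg
Pgam1 (chr19:41911621-41911870, plus strand): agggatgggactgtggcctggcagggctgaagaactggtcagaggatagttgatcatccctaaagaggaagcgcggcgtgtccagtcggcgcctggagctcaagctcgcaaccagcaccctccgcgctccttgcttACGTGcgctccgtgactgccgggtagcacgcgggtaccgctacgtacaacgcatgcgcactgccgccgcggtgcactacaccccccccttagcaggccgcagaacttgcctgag
The Pgam2 window held 1 CpG, the E-box CAGCTG starting 125 bases before the start and a match to the MEF2 motif starting 80 bases before it. The Pgam1 window held 22 CpGs and the letters ACGTG starting 114 bases before the start. Windows of 250 bases before to 50 after the start were matched for 37 of the 39 genes, with none for Slc2a4 and Gpd1. On either strand, CAGCTG occurred in 6 of 11 muscle isoforms of the pairs with a window (54.5%), in 1 of 13 other isoforms (7.69%) and in 18.3% of all 27025 genes with a window. The MEF2 motif occurred in 3 of the 11 muscle isoforms (27.3%), Pgam2, Ppp1r3a and Pfkfb1, in 0 of the 13 others and in 3.70% of all genes. Of these 3, Ppp1r3a and Pfkfb1 were the muscle isoforms that lay below their partner in all 20 muscles. Both also held CAGCTG, and Pfkfb1 had several annotated starts. The 1 other isoform with CAGCTG was Ppp1r3c, the higher of its pair. ACGTG, which lies within the longer motif CACGTG, occurred in 21 of 37 members (56.8%), in 21.8% of all genes and in 29.0% of tested genes. The median CpG count was 12 in the muscle isoforms, 21 in the other isoforms, 22 in all 37 members and 22 in the tested genes. A gene with several annotated starts was counted as holding a motif if any of its windows held it, and a match is a description of the letters and not of a bound site.

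The treatments were first compared over all 20 muscles. In edgeR, with the quasi-likelihood F test and p-values adjusted over all genes tested, no gene of the set passed a 5% false discovery rate, which 0.00691% of the genes passed. The lowest adjusted p in the set was 0.166. At an unadjusted p under 0.05, 8 of the 39 genes were higher in secretome-treated mice, against 6.52% of all genes tested, and 3 were lower, against 9.21%. The higher genes were Hk2, Slc16a1, Slc16a3, Gpd2, Ugp2, Phka1, Phkb and Epm2a, and the lower ones Pfkl, Pfkp and Pfkfb3. With trends on gene length and GC content removed from each library, 15 were higher, against 9.52% of all genes, and 2 lower, against 5.76%. The median log2 fold change over the set was 0.081, against −0.035 over all genes tested, with 26 genes above 0 and 13 below. Of all 14471 genes tested, 6387 lay above 0 and 8084 below.

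**Figure D2:**
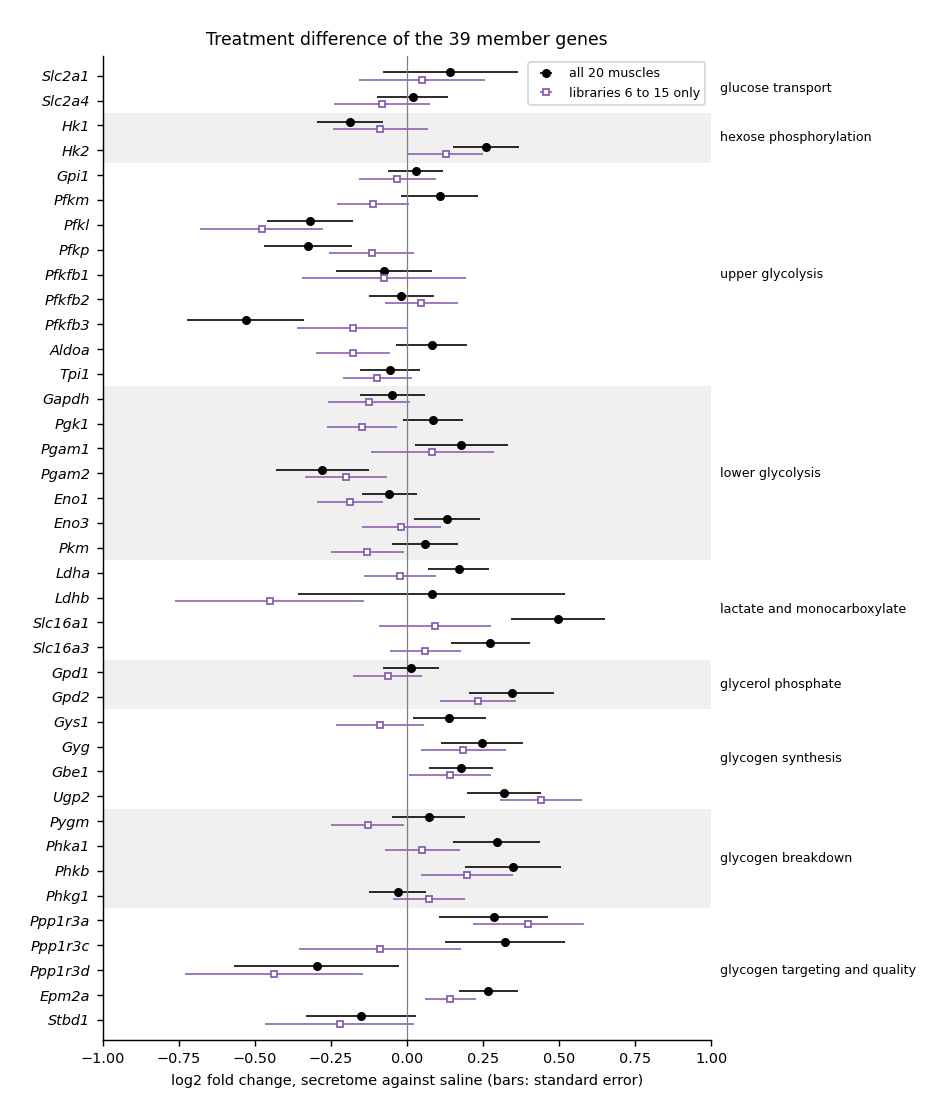
Log2 fold change of secretome-treated against control muscles (x axis) for the 39 genes by step (y axis), over all 20 muscles (filled circles) and within libraries 6 to 15 (open squares), with standard errors. Slc16a1 at 0.50 and Pfkfb3 at −0.53 are the ends of the range over all 20 muscles, and within libraries 6 to 15 they lie at 0.09 and −0.18.

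In glucose transport and phosphorylation, Hk2, the insulin-responsive muscle hexokinase, ran from 300.3 to 502 CPM in control muscles (median 384) and from 378 to 578 CPM in secretome-treated muscles (median 454). The groups overlapped, and 9 of 10 secretome-treated muscles lay above the control median. The log2 fold change was 0.26 ± 0.108 (SE; edgeR, unadjusted p = 0.0245, adjusted p = 0.257). Within libraries 6 to 15 it was 0.13 ± 0.124, and 3 of 5 secretome-treated muscles lay above the control median there. Hk1, the hexokinase of most other tissues, was at 9.51 ± 1.58 CPM in control and 8.35 ± 1.31 CPM in secretome-treated mice (SD, n = 10), a log2 fold change of −0.19 (adjusted p = 0.402). Slc2a4 and Slc2a1 had log2 fold changes of 0.02 and 0.14, both smaller than their standard errors of 0.116 and 0.221.

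In upper glycolysis, none of the 9 genes passed the false discovery rate, and 6 had a log2 fold change below 0, against 8084 of all 14471 genes. Pfkfb3, Pfkl and Pfkp were the genes at an unadjusted p under 0.05. Pfkfb3, the inducible form of the enzyme that makes the activator of phosphofructokinase, ran from 396 to 806 CPM in control muscles (median 610.0) and from 144 to 746 CPM in secretome-treated muscles (median 436). In secretome-treated muscles, 9 of 10 lay below the control median, and secretome replicate 6 was the lowest of all at 144 CPM. Pfkfb3 thus had a log2 fold change of −0.53 ± 0.192 (unadjusted p = 0.0111, edgeR adjusted p = 0.205). The level followed the library numbers, with means of 647 and 611 CPM in the control libraries 1 to 5 and 6 to 10, and 535 and 335 CPM in the secretome libraries 11 to 15 and 16 to 20. Within libraries 6 to 15 the log2 fold change was −0.18 ± 0.182.

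Pfkl, the liver phosphofructokinase, ran from 5.62 to 12.3 CPM in control muscles (median 9.36) and from 5.16 to 8.34 CPM in secretome-treated muscles (median 7.39). All 10 secretome-treated muscles lay below the control median although the groups overlapped, and the log2 fold change was −0.32 ± 0.140 (unadjusted p = 0.0320, edgeR adjusted p = 0.276). It was the only gene of the set lower at an unadjusted p under 0.05 both over all 20 muscles and within libraries 6 to 15, as Ugp2 was the only gene higher in both. When each muscle of libraries 6 to 15 was left out in turn, that p held for Pfkl in 4 of 10 fits, with log2 fold changes of −0.61 to −0.35, and for Ugp2 in 10 of 10. In libraries 6 to 10 the control muscles held 10.3, 7.39, 5.62, 12.3 and 9.92 CPM, and in libraries 11 to 15 the secretome-treated muscles held 5.16, 6.39, 8.34, 6.93 and 5.65 CPM. Control replicate 8 lay at the low end of the treated muscles and the other 4 control muscles above most of them. In this range Pfkl had a log2 fold change of −0.48 ± 0.202 (unadjusted p = 0.0329, edgeR adjusted p = 0.477).

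Pfkp ran from 7.49 to 22.7 CPM in control muscles (median 10.9) and from 8.17 to 12.1 CPM in secretome-treated muscles (median 9.17). The highest value by far came from control replicate 3, and 8 of 10 secretome-treated muscles lay below the control median. Its log2 fold change was −0.33 ± 0.146 (unadjusted p = 0.0352, edgeR adjusted p = 0.283), and −0.12 ± 0.141 within libraries 6 to 15. Pfkl and Pfkp stayed at or below 22.7 CPM in every muscle and are also made by cells other than fibres. Beside them, 3 of the 6 macrophage markers were lower at an unadjusted p under 0.05 over all 20 muscles and 4 of 6 within libraries 6 to 15, and all 6 had a log2 fold change below 0 in both. Their summed level within libraries 6 to 15 was 80.2 to 149 CPM in control and 43.4 to 89.9 CPM in secretome-treated muscles, and 2 of 3 smooth muscle markers were also lower at that p over all 20 muscles. All 4 fibroblast, 4 adipocyte, 4 Schwann cell, 5 slow fibre and 3 smooth muscle markers had log2 fold changes below 0 there too. So did 3 of 4 endothelial, 3 of 5 red blood cell, 1 of 3 neutrophil and 0 of 7 muscle fibre markers. The part of any of these cells in the Pfkl and Pfkp values was not tested. Pfkm, the isoform of the fibre itself, had a log2 fold change of 0.11 ± 0.126, and the other genes of the step, Gpi1, Pfkfb1, Pfkfb2, Aldoa and Tpi1, lay between −0.08 and 0.08.

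In lower glycolysis, none of the 7 genes reached an unadjusted p under 0.05 over all 20 muscles or within libraries 6 to 15. Their log2 fold changes over all 20 muscles ran from −0.28 for Pgam2 to 0.18 for Pgam1, with Gapdh at −0.05 ± 0.108 and Pkm at 0.06 ± 0.109. Pgam2 ran from 722 to 1694 CPM in control muscles (median 855) and from 597 to 1148 CPM in secretome-treated muscles (median 780.1). The 2 highest control muscles were replicates 2 and 3, and the groups overlapped.

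Among the 4 lactate genes, none passed the false discovery rate, and both carriers had an unadjusted p under 0.05, with Slc16a1 at the lowest p of the set over all 20 muscles. Slc16a1, a proton-coupled carrier of lactate and other monocarboxylates, ran from 18.5 to 36.4 CPM in control muscles (median 24.9) and from 20.6 to 60.5 CPM in secretome-treated muscles (median 35.1). In secretome-treated muscles, 8 of 10 lay above the control median, and secretome replicates 6 and 9 were the highest of all. For Slc16a1 the log2 fold change was 0.50 ± 0.156 (unadjusted p = 0.00407, edgeR adjusted p = 0.166). The means of the library ranges were 23.2, 27.4, 29.0 and 42.4 CPM in order, so that the excess lay in libraries 16 to 20, and within libraries 6 to 15 the log2 fold change was 0.09 ± 0.185. Slc16a3, the carrier that exports lactate from fast fibres, ran from 131 to 234 CPM in control (median 175) and from 168 to 319 CPM in secretome-treated muscles (median 199). Its 2 highest values came from secretome replicates 9 and 10, in libraries 16 to 20. The log2 fold change was 0.27 ± 0.131 (unadjusted p = 0.0480, edgeR adjusted p = 0.313), and 0.06 ± 0.116 within libraries 6 to 15. Ldha, the subunit that favours lactate formation, was at 1185 ± 181 CPM in control and 1332 ± 191 CPM in secretome-treated mice (SD, n = 10), with a log2 fold change of 0.17 ± 0.101.

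Ldhb, the subunit typical of oxidative fibres and heart, varied most within a group of all 39 genes, with a coefficient of variation of 80.2% in control and 74.8% in secretome-treated muscles. The other subunit took 77.4% to 97.7% of lactate dehydrogenase transcripts per length. Ldhb was highest in control replicate 2 at 147 CPM and in secretome replicates 6 and 9 at 124 and 114 CPM, and lowest in control replicates 1 and 6 at 17.5 and 17.8 CPM. The summed slow fibre markers also varied widely, from 0.469 to 360 CPM. In the 2 muscles with the highest slow fibre sums, control replicate 8 at 360 CPM and secretome replicate 8 at 332 CPM, Ldhb was at 48.6 and 77.9 CPM. In control replicate 2 with the highest Ldhb, the sum was 14.5 CPM. Control replicates 4 and 10, among the 6 muscles with the highest Ldhb at 73.6 and 66.7 CPM, had sums of 47.3 and 77.5 CPM. In the 2 muscles with the lowest Ldhb, control replicates 1 and 6, the sums were 1.76 and 0.882 CPM. Control replicate 5 had Ldhb at 23.8 CPM with a sum of 137 CPM. Secretome replicate 9, with Ldhb at 114 CPM, had a sum of 9.77 CPM. Ldhb and the slow fibre sum were thus low together in control replicates 1 and 6. They were apart in control replicates 2 and 5 and in secretome replicate 9. Their relation over muscles was not tested. Ldha stayed between 1024 and 1786 CPM. Ldhb showed no difference between treatments that its spread could resolve, at a log2 fold change of 0.08 ± 0.439.

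**Figure D3:**
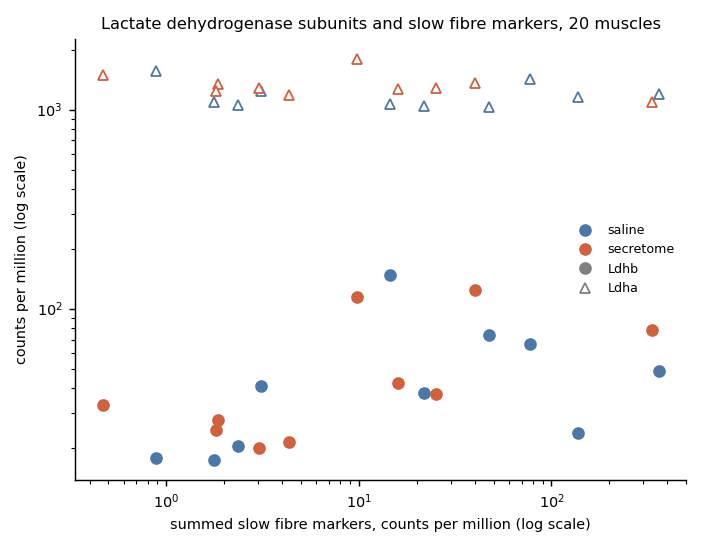
Ldhb (filled circles) and Ldha (open triangles) in CPM against the summed slow fibre markers in CPM, both on log axes, with 1 point per muscle and gene and the group in colour. Ldhb spans 17.5 to 147 CPM while Ldha spans 1024 to 1786 CPM.

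For the glycerol phosphate shuttle, which carries reducing equivalents from the cytosol to mitochondria, the mitochondrial Gpd2 ran from 81.3 to 215 CPM in control (median 166) and from 152 to 236 CPM in secretome-treated muscles (median 195). The lowest 2 muscles were control replicates 2 and 3. Its log2 fold change was 0.34 ± 0.139 (unadjusted p = 0.0212, edgeR adjusted p = 0.246) and 0.23 ± 0.125 within libraries 6 to 15, where all 5 secretome-treated muscles lay above the control median. The cytosolic Gpd1 had a log2 fold change of 0.01 ± 0.0929.

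Glycogen synthesis showed the gene of the set with the lowest p within libraries 6 to 15. Ugp2, which makes the UDP-glucose from which glycogen is built, ran from 275 to 563 CPM in control muscles (median 385) and from 424 to 622 CPM in secretome-treated muscles (median 513). All 10 secretome-treated muscles lay above the control median, although control replicates 1, 4 and 5 reached 541 to 563 CPM and overlapped with them. The log2 fold change was 0.32 ± 0.122 (unadjusted p = 0.0160, edgeR adjusted p = 0.229). The means were 470 and 371 CPM in the control libraries 1 to 5 and 6 to 10. In the secretome libraries 11 to 15 and 16 to 20 they were 500.3 and 548 CPM. In libraries 6 to 10 the control muscles held 381, 388, 373, 275 and 440.5 CPM, and in libraries 11 to 15 the secretome-treated muscles held 468, 525, 424, 603 and 482 CPM. A single secretome-treated muscle, replicate 3 at 424 CPM, lay below the highest control muscle. Within this range the log2 fold change was 0.44 ± 0.135 (unadjusted p = 0.00562, edgeR adjusted p = 0.412). The primer Gyg, the synthase Gys1 and the branching enzyme Gbe1 had log2 fold changes of 0.25, 0.14 and 0.18 over all 20 muscles, each with an unadjusted p above 0.05.

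In glycogen breakdown, none of the 4 genes passed the false discovery rate. The genes at an unadjusted p under 0.05 each encode a regulatory subunit of phosphorylase kinase, the enzyme that activates Pygm. Phka1, the muscle alpha subunit, ran from 553 to 1273 CPM in control (median 943) and from 970 to 1615 CPM in secretome-treated muscles (median 1112). All 10 secretome-treated muscles lay above the control median, and the log2 fold change was 0.29 ± 0.142 (unadjusted p = 0.0499, edgeR adjusted p = 0.318). Phkb, the beta subunit, ran from 175 to 523 CPM in control (median 474) and from 408 to 681 CPM in secretome-treated muscles (median 527). The 3 lowest muscles were control replicates 2, 3 and 9, and the log2 fold change was 0.35 ± 0.158 (unadjusted p = 0.0368, edgeR adjusted p = 0.287). Within libraries 6 to 15 the values were 0.05 ± 0.123 for Phka1 and 0.20 ± 0.151 for Phkb. The catalytic subunit Phkg1 and Pygm itself had log2 fold changes of −0.03 ± 0.0932 and 0.07 ± 0.120 over all 20 muscles.

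Among the targeting and quality genes, Epm2a, the laforin phosphatase that keeps glycogen soluble, ran from 46.8 to 83.0 CPM in control (median 73.9) and from 71.4 to 110 CPM in secretome-treated muscles (median 86.3). In secretome-treated muscles, 9 of 10 lay above the control median, and control replicate 3 was the lowest. Epm2a had a log2 fold change of 0.27 ± 0.0959 (unadjusted p = 0.0103, edgeR adjusted p = 0.205) and 0.14 ± 0.0836 within libraries 6 to 15. Ppp1r3a, the muscle targeting subunit of the glycogen phosphatase, met the unadjusted threshold only within libraries 6 to 15. There the control muscles held 573, 570, 697, 317 and 666 CPM, and the secretome-treated muscles 796, 796, 580, 807 and 712 CPM. Secretome replicate 3 lay among the controls and the other 4 treated muscles above all of them. The log2 fold change was 0.40 ± 0.183 (unadjusted p = 0.0471, edgeR adjusted p = 0.501), and 0.28 ± 0.178 over all 20 muscles. When 1 muscle of libraries 6 to 15 was removed at a time, Ppp1r3a met that threshold in 4 of 10 fits. The Ppp1r3c, Ppp1r3d and Stbd1 values over all 20 muscles were 0.32 ± 0.198, −0.30 ± 0.271 and −0.15 ± 0.180.

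**Figure D4:**
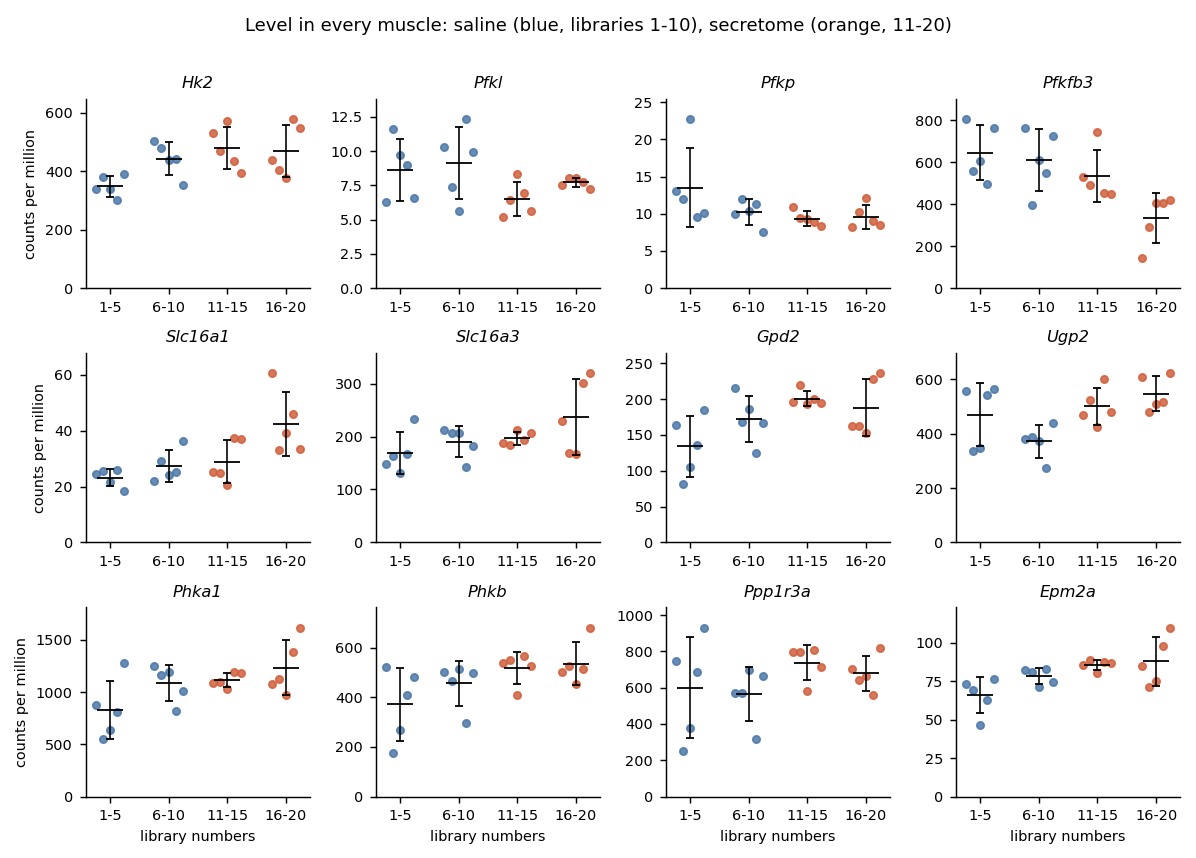
CPM of 12 genes in every muscle (y axis, from 0) by library number range (x axis), with control muscles in blue, secretome-treated muscles in orange and bars for the mean and SD of 5 muscles. Slc16a1 and Pfkfb3 are shifted most in libraries 16 to 20, with means of 42.4 and 335 CPM. The Ugp2 means also differ between libraries 6 to 10 and 11 to 15, at 371 and 500.3 CPM, with overlapping muscles. In the control libraries 1 to 5 the Ugp2 mean is 470 CPM.

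Within libraries 6 to 15, no gene of the set and no gene of the table passed the 5% false discovery rate (0.0%) in edgeR, where 726 genes were higher and 706 lower at an unadjusted p under 0.05. In the set, 2 genes were higher at that p, Ugp2 and Ppp1r3a, against 5.02% of all genes, and 1 was lower, Pfkl, against 4.88%. The median log2 fold change of the set was −0.076 there, against −0.014 over all genes, with 15 genes above 0 and 24 below. Of all 14471 genes tested, 6941 lay above 0 there and 7530 below. The median of the set therefore lay above 0 over all 20 muscles and below 0 within this range. By steps, the median within libraries 6 to 15 was −0.11 for upper glycolysis and −0.13 for lower glycolysis, and 0.16 for glycogen synthesis.

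The treatment difference within libraries 6 to 15 was then set against that between libraries 1 to 5 and 16 to 20, with the test of the difference itself. No gene of the set passed a 5% false discovery rate, which 0.0553% of all genes passed, and the lowest adjusted p of the set was 0.230 in edgeR. At an unadjusted p under 0.05 the log2 fold change was lower within libraries 6 to 15 than outside for 6 genes, against 5.51% of all genes, and higher for 1 gene, Pfkfb3 at 0.76 ± 0.339, against 5.59%. The 6 differences, inside minus outside, were Aldoa at −0.56 ± 0.194, Pgk1 at −0.51 ± 0.165, Ldha at −0.42 ± 0.178, Slc16a1 at −0.79 ± 0.266, Gys1 at −0.47 ± 0.220 and Ppp1r3c at −0.91 ± 0.346 on the log2 scale. Over the set, 31 of 39 genes had a difference below 0, with a median of −0.26 against 0.015 for all genes. Of all 14471 genes tested, 6987 had a difference below 0. Aldoa held means of 9829 and 12502 CPM in the control libraries 1 to 5 and 6 to 10, and 10958 and 12658 CPM in the secretome libraries 11 to 15 and 16 to 20. The 2 control ranges thus differed by more than the control and secretome-treated groups did, at 11166 ± 2034 and 11808 ± 1767 CPM (SD, n = 10). The mean titin share over the same ranges in order was 9.29%, 19.3%, 19.3% and 14.4%. Titin and Aldoa were both higher in libraries 6 to 10 than in 1 to 5. In libraries 16 to 20 titin was lower and Aldoa higher than in 11 to 15. The part of titin in these differences was not tested.

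Ratios of the muscle isoform to the other isoform, taken within a library as a difference of log2 CPM, do not depend on library size. Of 13 ratios, among which Pfkm entered 2, 2 differed between the treatments at an adjusted p under 0.05 in a two-sided permutation test over the 20 muscles. The Hk2 to Hk1 ratio ran from 4.63 to 5.91 in control and from 5.50 to 6.10 in secretome-treated muscles on the log2 scale. The lowest 3 muscles were control replicates 4, 3 and 1, and all 10 secretome-treated muscles lay above the control median. The ratio was 0.44 higher with secretome (permutation p = 0.00341, Benjamini-Hochberg adjusted over 13 ratios p = 0.0222). The Pgam2 to Pgam1 ratio ran from 7.13 to 7.94 in control and from 6.81 to 7.65 in secretome-treated muscles. All 10 secretome-treated muscles lay below the control median, and control replicates 4, 7 and 10 lay within the range of the treated muscles. The difference was −0.43 (permutation p = 0.00311, adjusted p = 0.0222). Within libraries 6 to 15 the 2 differences were 0.23 and −0.28, with exact permutation p of 0.103 and 0.143, and no ratio was called, the lowest adjusted p being 0.464. The number called over all 20 muscles was 0 without secretome replicate 10 and 6 without secretome replicate 3, and 0 with length and GC trends removed, where the lowest adjusted p was 0.0628. Phka1 over Phka2 differed by 0.57 (permutation p = 0.0128, adjusted p = 0.0556) and Pfkm over Pfkl by 0.39 (permutation p = 0.0191, adjusted p = 0.0622). These ratios join a fibre transcript to 1 also made by other cells. Hk1 and Pfkl had log2 fold changes of −0.19 and −0.32, while Pgam1 was at 0.18 and Pgam2 at −0.28. The part of other cells in the ratios was not tested.

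**Figure D5:**
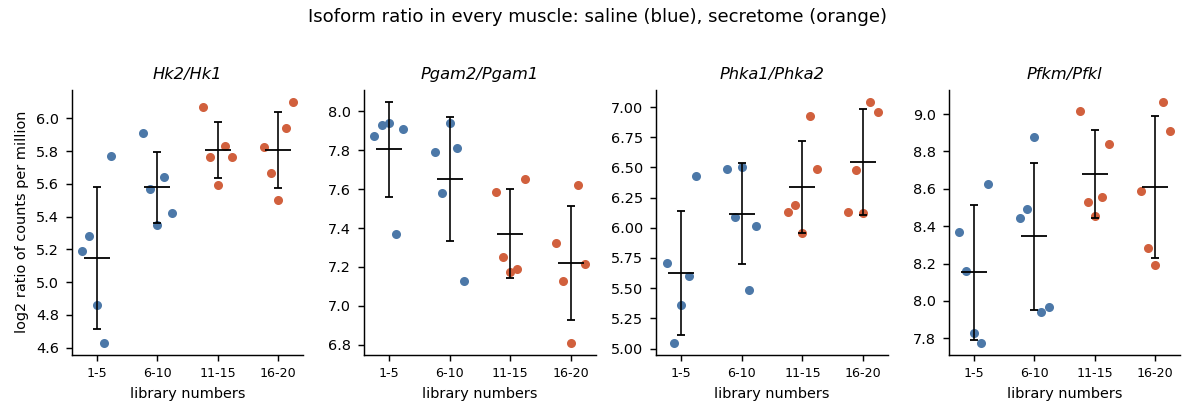
Log2 ratio of the muscle isoform to the other isoform in every muscle (y axis, not from 0) by library number range (x axis) for 4 pairs, with bars for the mean and SD of 5 muscles. All 10 secretome-treated muscles (orange) lie above the median of the control muscles (blue) for Hk2/Hk1 and below it for Pgam2/Pgam1.

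The rest of the pathway was read from lists outside the set. Of 31 other isoforms and enzymes, 23 could be tested, and none passed a 5% false discovery rate over all 20 muscles in edgeR. At an unadjusted p under 0.05, 1 was higher and 2 lower, against 6.52% and 9.21% of all genes tested, with a median log2 fold change of −0.028. Pgm2l1, a relative of phosphoglucomutase, was at 0.37 (unadjusted p = 0.00680, edgeR adjusted p = 0.189) and Phka2, the liver alpha subunit of phosphorylase kinase, at −0.23 (unadjusted p = 0.0256, edgeR adjusted p = 0.261). Of 20 regulators, all tested, none passed and 4 were higher at an unadjusted p under 0.05, with none lower, against the same shares of all genes, and a median of 0.12. Pdha1, the catalytic subunit of pyruvate dehydrogenase, was at 0.26 (unadjusted p = 0.0143, edgeR adjusted p = 0.221) and Prkaa2, the muscle catalytic subunit of AMP-activated kinase, at 0.34 (unadjusted p = 0.0166, edgeR adjusted p = 0.232). Txnip, which restrains glucose uptake, was at −0.10 and Pdk4, which blocks entry of pyruvate into mitochondria, at 0.12, each with an edgeR adjusted p above 0.70.

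The spread between muscles was also compared across the set. The median coefficient of variation of the 39 genes was 19.7% in control and 15.7% in secretome-treated muscles, against 26.0% and 18.6% over all genes tested. The spread was smaller with secretome in 29 of 39 genes (74.4%) and in 76.6% of all genes tested. The least variable genes in control muscles were Gpd1 at 12.9%, Gpi1 at 13.8% and Tpi1 at 13.97%, and the most variable after Ldhb were Ppp1r3c at 47.2% and Ppp1r3d at 47.1%. Leaving out each of the 20 muscles in turn kept the unadjusted p under 0.05 in all 20 fits for Slc16a1, Pfkfb3, Ugp2, Epm2a and Gpd2. It stayed there in 19 fits for Hk2, 15 for Phkb, 14 for Pfkp, 13 for Pfkl, 9 for Slc16a3 and 6 for Phka1. Leaving out 1 muscle keeps the library ranges, so it cannot separate them from the treatment. Over all 27 alternative fits (edgeR, DESeq2 or voom), the unadjusted p reached 0.679 for Slc16a1 and 0.436 for Pfkfb3. It reached 0.324 for Epm2a and 0.249 for Gpd2, and only Ugp2 stayed under 0.05, at 0.0319 or less.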

How the data were processed

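Quadriceps RNA of 20 mice was sequenced with paired 150-base reads from stranded, ribosome-depleted libraries. The authors deposited raw counts per Ensembl gene, 1 column per mouse. Their processing notes name cutadapt 1.16, STAR 2.7.9a, featureCounts 1.6.3, DESeq2 1.34.0 and build GRCm39, while the annotation and strand setting were not given in the sources used here. Without a known strand setting, overlapping and antisense genes are uncertain.

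From these counts, symbols were matched for 52083 of 55416 identifiers (GENCODE, GRCm38). Genes passing filterByExpr were tested in edgeR 4.0.16 (R 4.3.3) with TMM factors and the robust quasi-likelihood F test, called at a 5% false discovery rate, over all 20 muscles, within libraries 6 to 15, and for the difference between ranges. The standard error is the log2 fold change over the square root of F. CPM values use TMM library sizes, and TPM values divide counts by the union of exons. Isoform ratios (prior count 2) were tested with 100000 permutations, or exactly (252 arrangements) within libraries 6 to 15. Scripts were tested on simulated data. Alternatives included DESeq2 1.42.0 and limma 3.58.1 voom. Same-numbered muscles of the 2 groups were not paired. The members and lists were chosen with earlier results of these data known. All members could be named, and values per muscle were given for those at an unadjusted p under 0.05. Counts cover sampling error only.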

Additional observations from a re-analysis of the deposited data

Results flagged for a closer look

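Within each group of 10 muscles, 4 sets of values held a single muscle far from the rest, out of 104 examined, and chance alone gives about 5.2. On the log2 CPM scale, Hk1 was highest in secretome replicate 3 at 3.56, with the next muscle at 3.23. Pfkp was highest in control replicate 3 at 4.51, with the next at 3.72. Epm2a was lowest in the same control replicate at 5.55, with the next at 5.98. Pfkfb1 was lowest in control replicate 9 at 4.59, with the next at 5.52.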

How the results depend on the processing

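No gene of the set passed a 5% false discovery rate under any alternative run, and none passed 10% in the reported fit. With DESeq2 over all 20 muscles, Slc16a1 had the lowest adjusted p of the set at 0.0814, which is under 10%. Over all genes and 20 muscles, 1 gene was called in the reported fit, 213 with DESeq2, 3 when the rate was set to 10%, 3 with weighted voom, and 0 with a replicate block, with a term for 3 ranges of library numbers, or with length and GC trends removed; leaving out each muscle gave 0 to 13. Members higher at an unadjusted p under 0.05 numbered 8, but 4 with voom, 1 with the term for ranges and 15 with the trends removed, and 5 to 10 when each muscle was left out (5 without control replicate 3). Members lower numbered 3, but 1 with voom and 1 with the term for ranges, and 1 to 4 when each muscle was left out (1 without secretome replicate 5). Of all genes tested, 6.52% were higher and 9.21% lower in the reported fit, and 9.52% and 5.76% with the trends removed. Shares of all genes are not given here for the other alternatives, including those within and between ranges below. Their member counts are therefore no result about the set. Within libraries 6 to 15, DESeq2 called 37 genes against 0, members lower went from 1 to 0 with the trends removed, and leaving out a muscle gave 0 genes called, 1 to 2 members higher and 0 to 3 lower. For the difference between ranges, leaving out a muscle gave 1 to 9 genes called, 0 to 1 members higher inside and 4 to 11 lower. The median log2 fold change of the set was −0.088 with the term for ranges and −0.076 within libraries 6 to 15, and 0.032 to 0.13 when each muscle was left out. Called isoform ratios went from 2 to 0 with length and GC trends removed, with the replicate block and within libraries 6 to 15, and ranged from 0 to 6 when each muscle was left out. The cause of these changes was not tested.

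Same-numbered muscles correlated at −0.24 to 0.22, over 0.1 for 2 of 10 numbers, so they share only a number; with the replicate block 8 members were higher and 3 lower at an unadjusted p under 0.05, as without it. Depth ran from 13286983 to 22987237 counts and limits the genes under about 10 CPM most, among them Pfkl, Hk1, Pgam1 and Ppp1r3d.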
